A study of Mus musculus with 19 samples.

Results

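The apolipoprotein genes Apoa1, Apoa2, Apoa4, Apoa5, Apob, Apoc1, Apoc2, Apoc3, Apoe and Apoh were examined for chromatin binding of YAP and TEAD in mouse liver by ChIP-seq. They are 10 of 22380 annotated protein-coding genes. Each gene body was extended by 20 kb on either side (GENCODE annotation of NCBIM37/mm9), windows that overlapped were merged, and every peak that overlapped a window was taken. The 10 genes fell into 5 loci of 382.5 kb in all, because Apoe, Apoc1 and Apoc2 lie together on chromosome 7 and Apoa1, Apoc3, Apoa4 and Apoa5 on chromosome 9, while Apoa2, Apob and Apoh lie alone. The loci also held 13 other protein-coding genes, and 114 of the 82869 peaks in the 6 lists.

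The study followed what an activated YAP transgene does to chromatin binding in the liver, with 19 libraries in 6 groups. WT livers (genotype ROSA26-rtTA-IRES-EGFP; WT) received doxycycline food for 7 days, and induced livers (ROSA26-rtTA-IRES-EGFP; tetYAP) received it for 3 days (3 d) or 7 days (7 d). All were on the C57BL/6 background, all carried the rtTA allele and all were fed doxycycline, and the labels used here give no age. According to the study's methods the tetYAP mice for short-term induction were crossed with albumin-Cre mice, and the genotypes given above name no Cre. The study describes the YAP induction as one in hepatocytes, and whether other liver cells were also targeted was not tested. There were 3 replicates per group and 4 for TEAD at 7 d, and those of a group were merged before peak calling. There is therefore 1 list per group, no spread between animals and no p-value for any difference between conditions. Peak lists hold no expression values, so the liver label could not be checked against marker genes. The antibody against TEAD is reported in the study's methods to recognise TEAD1 and TEAD3 besides TEAD4.

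Apolipoproteins are the protein part of plasma lipoproteins, the particles that carry cholesterol and triglycerides in blood, and hepatocytes secrete most of them. Apob is the structural protein of very-low-density lipoprotein, Apoa1 and Apoa2 are the main proteins of high-density lipoprotein, Apoe is a ligand for the uptake of particles into cells, and the smaller members adjust the lipases that unload the particles. YAP is a coactivator without a DNA-binding domain that is held in check by the Hippo pathway. It reaches chromatin mainly through the TEAD factors, which read the sequence GGAATG.

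The sequences below are 300 bp of mm9, plus strand, around the summit of the TEAD peak with the highest pileup at 7 d in each locus, together with a promoter site of Apoe. They are shown because the values that follow turn on these sites. Pileup counts the fragments, extended to the caller's fragment length, that lie over a peak's summit. Capitals mark GGAAT or its reverse complement ATTCC, the core of the TEAD sequence.
Between Apoc4 and Apoc1, chr7:20272243-20272542: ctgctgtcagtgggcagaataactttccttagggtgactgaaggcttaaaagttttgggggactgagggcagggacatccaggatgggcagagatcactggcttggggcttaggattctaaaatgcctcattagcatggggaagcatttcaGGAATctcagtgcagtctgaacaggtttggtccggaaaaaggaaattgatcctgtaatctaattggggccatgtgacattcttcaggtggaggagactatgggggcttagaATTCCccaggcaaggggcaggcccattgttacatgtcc
Apoe promoter, chr7:20283680-20283979: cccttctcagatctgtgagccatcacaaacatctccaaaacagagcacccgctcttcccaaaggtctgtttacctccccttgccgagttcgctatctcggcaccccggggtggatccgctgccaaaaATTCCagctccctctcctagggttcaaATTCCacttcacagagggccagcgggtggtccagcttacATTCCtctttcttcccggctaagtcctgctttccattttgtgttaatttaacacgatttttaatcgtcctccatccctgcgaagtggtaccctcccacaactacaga
Upstream of Apoa5, chr9:46067267-46067566: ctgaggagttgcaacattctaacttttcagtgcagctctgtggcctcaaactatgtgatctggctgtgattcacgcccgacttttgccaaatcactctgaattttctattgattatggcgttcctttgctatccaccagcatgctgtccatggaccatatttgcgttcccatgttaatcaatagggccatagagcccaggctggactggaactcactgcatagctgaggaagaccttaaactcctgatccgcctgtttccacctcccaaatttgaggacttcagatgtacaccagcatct
Upstream of Apoa2, chr1:173152610-173152909: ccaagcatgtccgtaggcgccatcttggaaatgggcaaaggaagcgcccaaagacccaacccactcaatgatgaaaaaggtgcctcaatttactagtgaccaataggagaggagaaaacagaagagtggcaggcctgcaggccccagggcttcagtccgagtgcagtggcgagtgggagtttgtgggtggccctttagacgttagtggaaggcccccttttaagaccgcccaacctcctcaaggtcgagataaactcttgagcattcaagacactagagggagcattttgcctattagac
Apob intron, chr12:7985239-7985538: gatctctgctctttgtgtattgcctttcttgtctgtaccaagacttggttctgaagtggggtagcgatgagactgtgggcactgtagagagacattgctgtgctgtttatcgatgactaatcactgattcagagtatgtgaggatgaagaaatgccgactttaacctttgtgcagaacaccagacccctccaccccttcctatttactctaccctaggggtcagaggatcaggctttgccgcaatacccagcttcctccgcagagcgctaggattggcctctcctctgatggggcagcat
Ccdc46 promoter in the Apoh locus, chr11:108286314-108286613: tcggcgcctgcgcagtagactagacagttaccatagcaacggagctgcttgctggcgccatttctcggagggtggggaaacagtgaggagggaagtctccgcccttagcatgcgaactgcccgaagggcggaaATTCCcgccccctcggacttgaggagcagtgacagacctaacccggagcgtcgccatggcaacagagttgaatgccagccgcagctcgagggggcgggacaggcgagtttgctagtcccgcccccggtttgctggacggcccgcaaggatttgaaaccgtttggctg
The site between Apoc4 and Apoc1 held GGAAT on either strand 2 times, the nearer of them 3 bp from the summit. The Apoe site held it 3 times, and 1 of these was extended to the full GGAATG. The Ccdc46 site held the core 1 time, and the sites of Apoa5, Apoa2 and Apob did not hold it within these windows.

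Peaks of YAP were fewer than those of TEAD at these loci, and the YAP lists are also shorter. YAP had no peak there in WT livers (0 of 156 peaks) or at 3 d (0 of 110), and 1 of 1478 peaks at 7 d. TEAD had 10 peaks there in the WT list of 5695, 52 in the 3 d list of 36446 and 51 in the 7 d list of 38984. In chromatin of whole liver, binding in more cells and more binding per cell cannot be told apart. This is 2.61, 13.6 and 13.3 TEAD peaks per 100 kb of locus. In each TEAD list the loci held a small share of all peaks, 0.176% in WT, 0.143% at 3 d and 0.131% at 7 d. The longer lists of the induced livers bear on these counts. When the 3 d and 7 d lists were limited to as many of their highest peaks as the WT list holds, the loci kept 7 and 6 peaks.

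**Figure D1:**
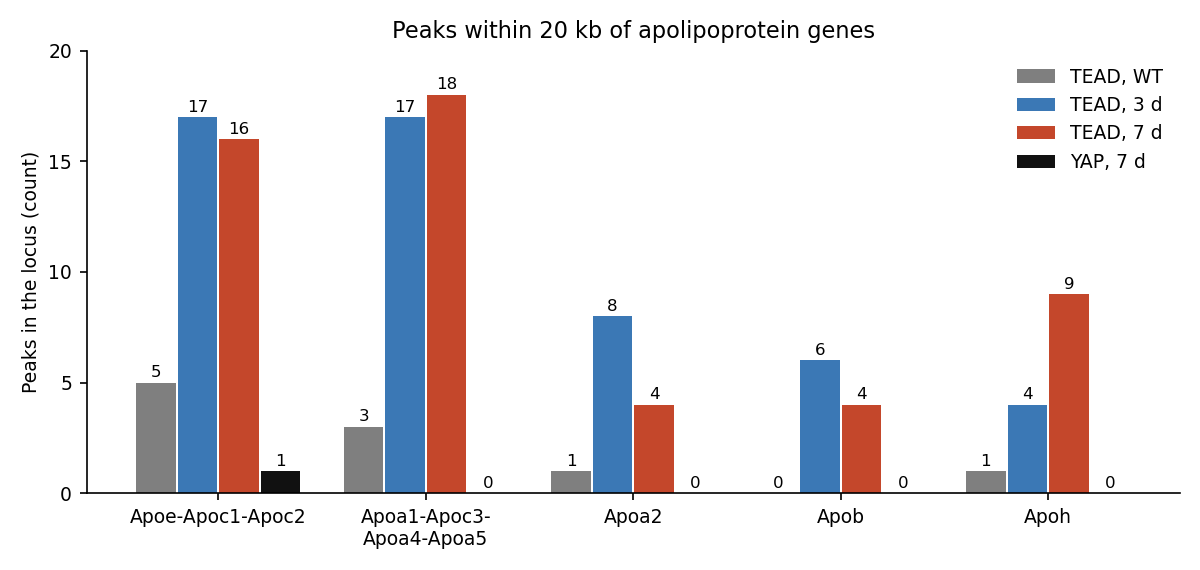
Number of peaks in each of the 5 loci (bars, count), for TEAD in WT livers and at 3 d and 7 d, and for YAP at 7 d. The YAP lists of WT and 3 d are left out because they hold 0 peaks here, and the only YAP bar is the 1 peak of the Apoe-Apoc1-Apoc2 locus.

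Counted by gene, 9 of the 10 members had a TEAD peak within 20 kb in WT livers, all but Apob, and all 10 had one at 3 d and at 7 d. The same holds for 25.4% of all protein-coding genes in WT, 65.2% at 3 d and 66.5% at 7 d. A YAP peak at 7 d lay within 20 kb of Apoc2, Apoc1 and Apoe, 3 of 10 members against 6.33% of all genes, and these 3 genes share 1 peak. In WT and 3 d livers 0 of 10 members had a YAP peak, with a background of 0.139% and 0.192%. Members of a cluster share peaks, so the genes are not independent of each other.

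In the induced livers more TEAD peaks were listed around each member than around the median gene. The median over the 10 members was 1.5 peaks in WT, 11 at 3 d and 10 at 7 d. Members ranged from 0 to 5 in WT, and in the induced livers from 4 to 15 and from 4 to 14. The median over all protein-coding genes was 0, 1 and 1. At 7 d Apoc2 had 14 peaks within 20 kb, and as many or more were found around only 0.996% of genes. Apoc1 and Apoe had 13 each (1.36% of genes), Apoa4 had 12 (1.76%), and Apoa1 and Apoc3 had 10 each (3.01%). Apoa2 and Apob had 4 peaks each, a number that 24.7% of genes reached. Windows differ in length, and in peaks per 100 kb at 7 d Apoa2 stood above 92.2% of genes and Apob above 75.9%. At 3 d Apoa2 had 8 peaks (reached by 5.32% of genes) and Apob had 6 (11.2%). All 10 members had more TEAD peaks at 3 d and at 7 d than in WT, as did 62.1% and 63.5% of all genes. No member had a peak in WT and none at 3 d or at 7 d, a pattern found at 0.107% and 0.103% of genes.

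At promoters, from 2000 bp upstream to 1000 bp downstream of a transcript start, TEAD was found at Apoa2, Apoc1 and Apoe in WT livers. These are 3 of 10 members, against 8.73% of all protein-coding genes. At 3 d it was found at 8 of 10 promoters, all but those of Apoa4 and Apoa5 (38.8% of all genes). At 7 d it was found at 7, the same ones without Apoc3 (37.6% of all genes). A promoter peak that WT lacked was thus present at 5 of 10 members at 3 d and 4 at 7 d, against 30.2% and 28.9% of all genes. These counts use every annotated transcript start. With only the 5′ end of each gene, members with a promoter peak numbered 3 in WT, 6 at 3 d and 5 at 7 d. YAP had no peak at any member promoter in any list, against 0.0357% of genes in WT, 0.0715% at 3 d and 1.04% at 7 d. Of the 51 TEAD peaks at 7 d, 18 overlapped a member promoter and 26 the promoter of any protein-coding gene, a share that is 27.0% over the whole list. The windows were drawn around genes, which places promoters in them by construction.

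The Apoe-Apoc1-Apoc2 locus (chr7:20236928-20304515) carried the 1 YAP peak and the highest TEAD pileups of all 5 loci. Apoe mediates the uptake of remnant particles, Apoc2 is the cofactor that lipoprotein lipase needs, and Apoc1 is a small protein of several particle classes. TEAD had 5 peaks here in WT, 17 at 3 d and 16 at 7 d. The leading site lies in intergenic DNA between Apoc4 and Apoc1, 2440 bp beyond the 3′ end of Apoc1 and 5628 bp from the start of Apoc4, with Apoe starting 12122 bp away. Distances of this and other sites are those of the 7 d summit, or of the 3 d summit where a site was listed at 3 d only.

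At this site TEAD had no peak in WT livers, a pileup of 141 at 3 d (fold enrichment 23.15 over local background, −log10 p 136.62) and a pileup of 171 at 7 d (fold enrichment 40.29, −log10 p 205.19). The 3 d peak stood at rank 809 of 36446 in its list, the top 2.22%, and the 7 d peak at rank 626 of 38984, the top 1.61%. Scaled to the tag number of the WT library, the pileups would be 90.1 and 156, and the lowest pileup in the WT list was 24. The WT TEAD list was called with fragments of 400 bp, the 3 d list with 207 bp and the 7 d list with 206 bp, so pileups are not on the same footing between WT and induced livers, and the part of depth and fragment length in the absence of a WT peak was not tested.

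YAP at the same site was listed at 7 d only (chr7:20272201-20272551), with a pileup of 26 and an enrichment of 5.68-fold at a −log10 p of 12.11. Its summit lay 32 bp from that of TEAD. The order differed between the lists: this peak was 921 of 1478 by pileup among YAP peaks, the top 62.3%, while the TEAD peak was near the head of its list. Scaled to the tag numbers of the other YAP libraries the pileup would be 27.5 at 3 d and 41.5 in WT, where the lowest listed pileups were 20 and 24. The YAP lists were all called with fragments of 250 bp. Of the 642 TEAD peaks at 7 d with a pileup at least as high, 424 (66.0%) overlapped a YAP peak, 171 (26.6%) had no overlapping WT TEAD peak, and 125 had the YAP peak and no WT peak, as this site does.

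The promoters of Apoc1 and Apoe carried TEAD in all 3 conditions. The Apoc1 promoter peak, 159 bp upstream of a transcript start, had a pileup of 41 in WT (rank 2514), 90 at 3 d (rank 2611) and 102 at 7 d (rank 2750). The Apoe peak, 74 bp upstream of 1 of its 9 annotated starts and inside an intron of longer transcripts, had 52 in WT (rank 1280), 75 at 3 d (rank 3953) and 80 at 7 d (rank 4527). The rank of the Apoe site in WT was thus among the 2 highest of the loci. The other was a site in a noncoding exon of Tomm40, a mitochondrial import receptor gene, 14239 bp upstream of Apoe, with 53 in WT (rank 1206), 64 at 3 d and 80 at 7 d. A second Apoc1 promoter peak, 1922 bp upstream, had 30, 55 and 58. A second Apoe promoter peak, 1980 bp upstream, had 31, 46 and 24, the lowest ratio of 7 d to 3 d among the matched peaks of the loci. Apoc2 had no promoter peak in WT, and its promoter peaks had pileups of 29 and 34 at 3 d and of 24 to 28 at 7 d.

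The Apoa1-Apoc3-Apoa4-Apoa5 locus (chr9:46016663-46100002) had no YAP peak, and the nearest at 7 d lay 723 kb from Apoa1. Apoa1 is the main protein of high-density lipoprotein, Apoc3 slows lipoprotein lipase and Apoa5 speeds triglyceride clearance. TEAD had 3 peaks in WT, 17 at 3 d and 18 at 7 d. The highest site was intergenic, 9299 bp upstream of Apoa5, with a pileup of 42 in WT (rank 2346), 82 at 3 d (rank 3264) and 77 at 7 d (rank 4879). Around it lay a run of sites in the gap between Apoa4 and Apoa5. One at 12260 bp upstream of Apoa5 had 31, 39 and 44 in WT, 3 d and 7 d. Others at 10849 bp and 7068 bp upstream were listed in induced livers only, with 49 and 53 at 3 d and 34 and 48 at 7 d.

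At the genes of this cluster the pileups were below that of the highest site in the same list. Apoa1 had a site in a coding exon, 1406 bp past a start, with 29 in WT, 47 at 3 d and 36 at 7 d, and its 3 d and 7 d peaks but not its WT peak reached into the promoter. A site 1375 bp upstream of Apoa1 had no WT peak, 54 at 3 d and 35 at 7 d. The Apoc3 promoter had a peak 20 bp upstream of a start at 3 d only, with a pileup of 28 at rank 28008 of 36446. Apoa4, which the intestine makes besides the liver, had no promoter peak in any list, and a site 6205 bp past its start had no WT peak, 37 at 3 d and 27 at 7 d.

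**Figure D2:**
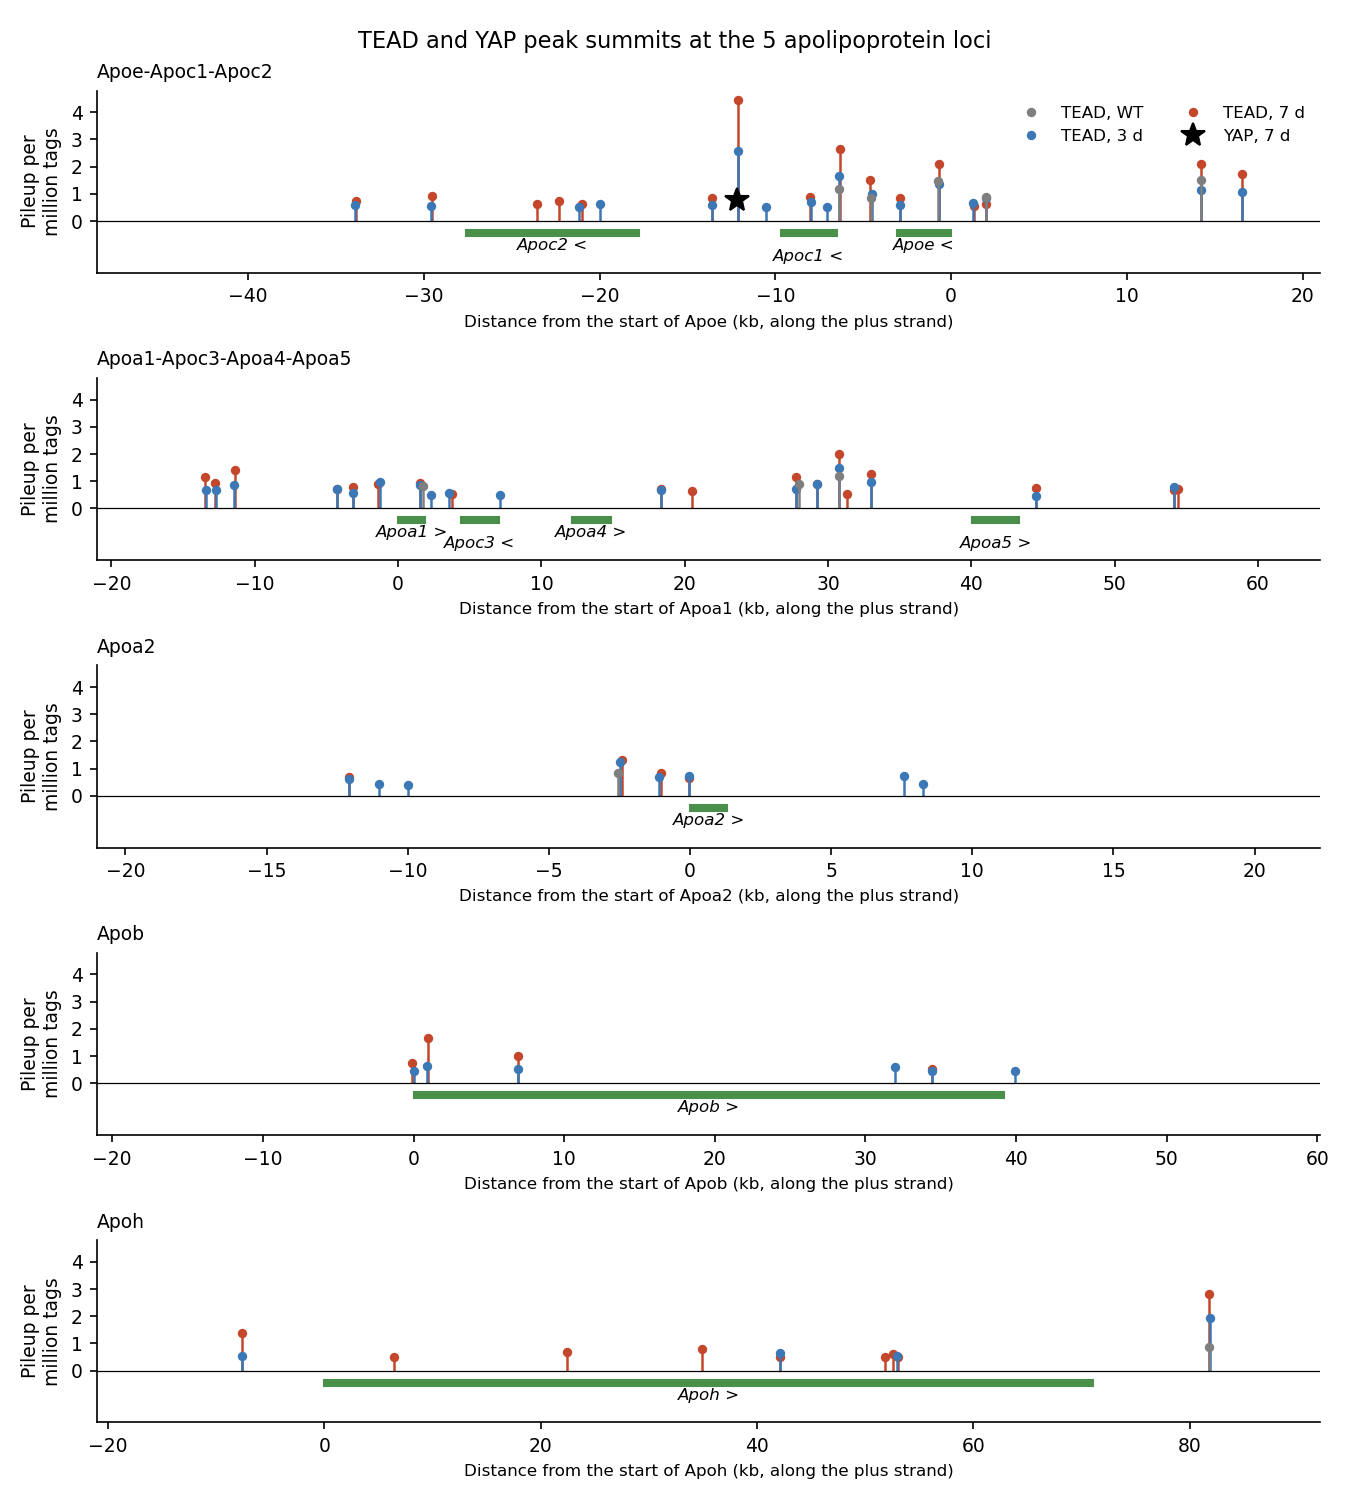
TEAD and YAP peak summits along the 5 loci, as distance in kb from the start of a named gene against pileup per 1000000 tags of the merged library. Green bars are member genes with their direction, each stick is 1 peak, and the tallest, at the Apoe-Apoc1-Apoc2 locus with 4.44 at 7 d, carries the star of the only YAP peak.

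The Apoa2 locus (chr1:173135185-173176510) had 1 TEAD peak in WT, 8 at 3 d and 4 at 7 d, and no YAP peak. Apoa2 lies next to Tomm40l and Nr1i3, which encodes the nuclear receptor CAR. Its leading site, 2425 bp upstream of Apoa2, had a pileup of 30 in WT (rank 5076), 68 at 3 d (rank 4855) and 51 at 7 d (rank 9982). The peaks of all 3 lists overlapped a Tomm40l promoter, and those of WT and 3 d also the Apoa2 promoter. Nearer to the gene, 2 sites 1043 bp and 32 bp upstream had no WT peak, with 39 and 40 at 3 d and 33 and 25 at 7 d. The nearest YAP peak at 7 d lay 34.0 kb away, within Adamts4 (chr1:173190468-173190921, pileup 25), and overlapped TEAD peaks of both WT and 7 d.

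Apob, the structural protein of the triglyceride-rich particles that the liver exports, was the only member with no TEAD peak within 20 kb in WT livers. A gene with a peak at 3 d and none in WT was not rare: 39.9% of protein-coding genes had this pattern at 3 d and 41.2% at 7 d. The locus (chr12:7964454-8043641) had 6 TEAD peaks at 3 d and 4 at 7 d. The promoter site 95 bp upstream of the first start had pileups of 24 at 3 d and 28 at 7 d. The highest site, in an intron 804 bp past that start, had 34 at 3 d (rank 19394) and 64 at 7 d (rank 6799). All 6 of the 3 d pileups, scaled to the WT tag number, were below the lowest WT pileup, and so was 1 of the 4 at 7 d. The part of tag number and fragment length in the absence of a WT peak was not tested. The nearest YAP peak at 7 d lay 27.2 kb upstream, outside the window (chr12:7956989-7957255, pileup 31, rank 520), and overlapped TEAD peaks of both WT and 7 d.

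Apoh, a plasma protein that binds anionic phospholipids, spans chr11:108204668-108275710 in this annotation with 4 transcript starts. Its locus (chr11:108184668-108295710) had 1 TEAD peak in WT, 4 at 3 d and 9 at 7 d, and the nearest YAP peak at 7 d was 443 kb away. The highest TEAD site lay 10754 bp beyond Apoh at the promoter of the neighbour Ccdc46, with a pileup of 31 in WT (rank 4862), 106 at 3 d (rank 1753) and 109 at 7 d (rank 2341). Another site in an intron of Prkca, a protein kinase C gene, 7620 bp upstream of Apoh, had no WT peak, 30 at 3 d and 53 at 7 d. Within Apoh itself all pileups were at most 36, and 4 of its sites were listed at 7 d only. Its promoter peaks, at the last of its starts, had a pileup of 30 at 3 d and of 19 to 23 at 7 d.

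Overlapping peaks of the TEAD lists were chained into 59 sites. Of these, 10 were in all 3 lists, 31 in both induced lists but not in WT, 11 at 3 d only and 7 at 7 d only. No site was found in WT alone. All 10 WT peaks overlapped a 3 d and a 7 d peak (Wilson 95% interval 72.2% to 100%), and this holds for 98.4% and 95.4% of the whole WT list. Intervals here cover counting error over peaks only. In the other direction 10 of 51 peaks at 7 d overlapped a WT peak (19.6%, 11.0% to 32.5%, whole list 14.1%), and 10 of 52 at 3 d did (19.2%, 10.8% to 31.9%, whole list 15.5%). Of the 51 peaks at 7 d, 44 overlapped a 3 d peak (86.3%, 74.3% to 93.2%), against 71.2% of the whole list. Only 1 of 51 overlapped a YAP peak of 7 d (1.96%, 0.347% to 10.3%, whole list 3.58%). Of the 52 peaks at 3 d, 41 overlapped a 7 d peak (78.8%, 66.0% to 87.8%, whole list 75.9%) and 1 overlapped that YAP peak (whole list 3.57%).

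The TEAD lists differ in tag number and fragment length, and the part of either in the absence of WT peaks was not tested. The lowest listed pileup was 24 in WT, 20 at 3 d and 16 at 7 d, and it did not follow the tag number. Of the 42 sites found at 3 d and not in WT, 28 had a 3 d pileup that falls below 24, the lowest WT value, once scaled to the WT tag number. Of the 38 found at 7 d and not in WT, 12 did. A scaled pileup of at least 48, which is 2 times that lowest value, was reached by 1 of these sites at 3 d, the one between Apoc4 and Apoc1. At 7 d it was reached by 5 sites, which besides this one were the Apob intron site, the Prkca intron site, a site at the Tomm40 promoter and a site in an intron of Sik3 near Apoa1.

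Ranked by pileup within their own list, the peaks of these loci were spread over the whole range. In WT the median position was the top 85.4% of the list (order-statistic 95% interval 22.5% to 89.1%), and the median pileup was 31 against 40 over the whole list. At 3 d the median position was the top 46.2% (pileup 36.5 against 36), and at 7 d the top 54.7% (31 against 33). Of the 10 WT peaks, 4 stood in the upper 50% of their list, 2 in its top 25% and 0 in its top 10%. In the induced livers 11 of 52 and 11 of 51 stood in the top 25%, and 4 and 3 in the top 10%. The 3 in the top 10% at 7 d were the site between Apoc4 and Apoc1, the Ccdc46 promoter and the Apoc1 promoter, and only the first of them overlapped a YAP peak. Over the whole 7 d list 1152 of 3932 peaks in that range (29.3%) did.

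**Figure D3:**
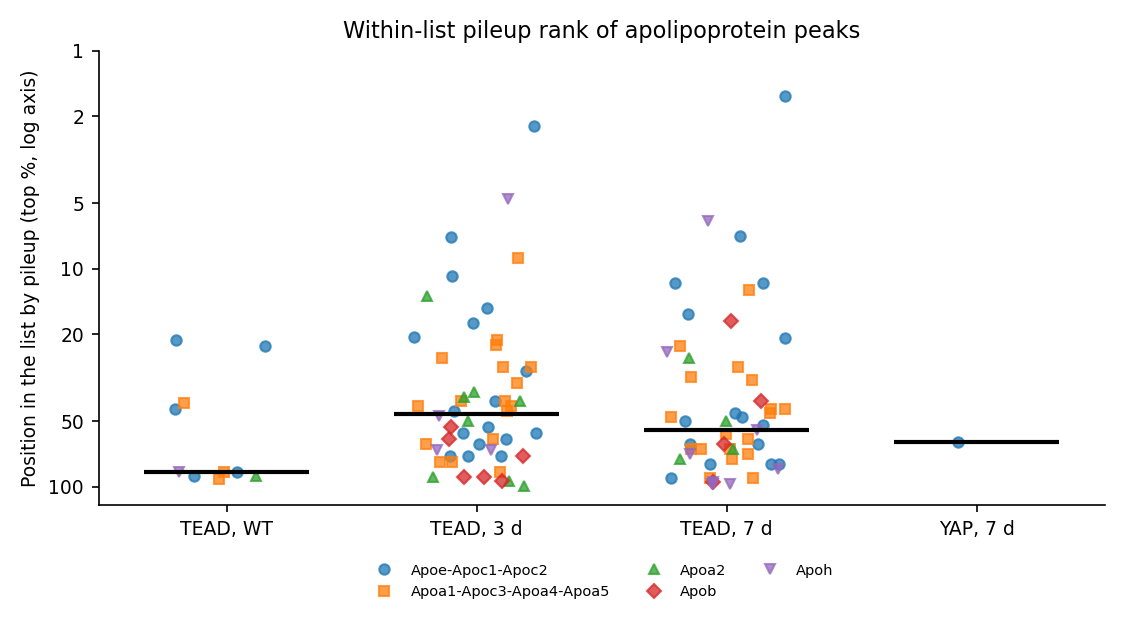
Position of each peak of the 5 loci within its own list by pileup (top %, log axis, highest pileup at the top), with points spread sideways for legibility and black bars at the medians. The WT TEAD peaks have a median of 85.4%, while 1 peak of the Apoe-Apoc1-Apoc2 locus stands at 2.22% at 3 d and 1.61% at 7 d and the YAP peak at 62.3%.

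TEAD at 7 d was compared with 3 d at peaks whose summits lay at most 100 bp apart, as pileup per 1000000 tags of the merged library (tag-scaled pileup), since both lists were called with nearly the same fragment length. The 38 matched peaks of the loci had a median log2 ratio of 0.43 (order-statistic 95% interval 0.14 to 0.61), and 29 of 38 (76.3%) were higher at 7 d. Nearly the same was seen over the whole list. Over all 23288 matched peaks the median was 0.44 and 85.8% were higher, and centred on that median the loci stood at −0.01. A ratio of at least 2-fold was reached by 2 of 38 peaks, against 11.9% of all matched peaks, and none was at least 2-fold lower (0.0344% of all).

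The peaks past 2-fold lay at the Apob and Apoh loci. The Apob intron site had a tag-scaled pileup of 0.618 at 3 d and 1.66 at 7 d (2.69-fold, log2 1.43), higher than the ratio of 95.9% of matched peaks. The Prkca intron site upstream of Apoh had 0.545 and 1.38 (2.52-fold, log2 1.34), higher than 94.8%. The site between Apoc4 and Apoc1 had 2.56 and 4.44 (1.73-fold, log2 0.79), which 78.6% of matched peaks did not reach. By locus the median log2 ratio was 0.59 at Apoe-Apoc1-Apoc2 (13 peaks), 0.40 at Apoa1-Apoc3-Apoa4-Apoa5 (14), 0.12 at Apoa2 (4), 0.90 at Apob (3) and 0.21 at Apoh (4). The ranges overlapped, from −0.42 to 0.84 in the first and from −0.33 to 1.34 in the last, so the loci were not separated by this measure.

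**Figure D4:**
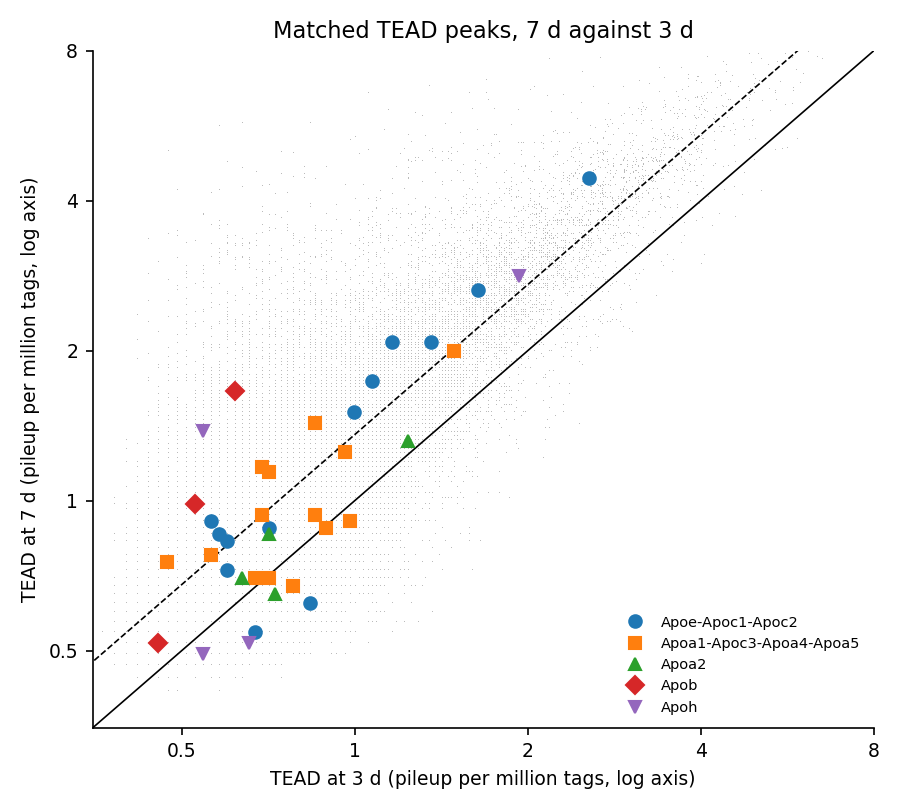
TEAD pileup per 1000000 tags at 3 d (x, log axis) and 7 d (y, log axis) at matched peaks, with coloured symbols for the 38 peaks of the 5 loci and grey dots for all matched peaks that lie within the axes. The solid line marks equal values and the dashed line the median log2 ratio of 0.44, and the loci spread on both sides of it with 18 of 38 above.

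Short sequences were searched on both strands in the 300 bp around summits at 7 d. GGAATG was found at 14 of 51 TEAD peaks of the loci (27.5%), against 39.0% of all 38953 TEAD peaks placed on the genome and 63.9% of the strongest 10%. Its 5-letter core GGAAT, which it contains and which was searched after the sequences had been seen, was found at 29 of 51 (56.9%) against 69.4%. Sequences of other liver factors showed no common direction. TGTTTAC, read by FOXA factors, was found at 7 of 51 (13.7%) against 7.64%, TGANTCA, read by AP-1, at 6 of 51 (11.8%) against 11.9%, and CAAAGTCCA, read by HNF4, at 1 of 51 (1.96%) against 2.02%. The YAP peak of the loci held none of these 4 sequences but did hold the core. Of all 1456 YAP peaks that could be placed, 64.4% held GGAATG and 87.9% the core. A match is a description of letters and does not show that a factor binds there. Only these letter strings were searched, without variants, so a missing match does not show that a binding site is absent.

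Genes that act with the apolipoproteins gave a wider view of YAP. A list of 31 further genes of lipoprotein assembly, uptake, remodelling and transport was read in the same way, and all but Apoc4 lay outside the 5 loci. It was chosen with earlier results of these data known, and some of its genes share a peak. Its counts are therefore no unbiased comparison with all genes. TEAD had a peak within 20 kb of 17 of the 31 in WT, where 25.4% of all genes had one, and of 28 at 3 d (65.2% of all genes) and 28 at 7 d (66.5%). The 3 without one at 7 d were Apod, Lpl (lipoprotein lipase) and Mylip, a ubiquitin ligase gene. YAP was listed near 0 of the 31 in WT (0.139% of all genes) and 0 at 3 d (0.192%), and near 10 at 7 d (6.33%). These 10 were Apoc4, which shares the peak described above, Apof and Apon, which share 1 peak with a pileup of 28, Clu, Lrp1, Angptl4, Abca1, Abcg5, Abcg8 and Saa2.

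Among them 4 had YAP at the promoter at 7 d, against 1.04% of all genes, namely Apon, Clu (apolipoprotein J), and Abcg5 and Abcg8, the sterol exporter pair whose genes share 1 peak with a pileup of 24. The highest YAP pileup of the list was 37, near the acute-phase gene Saa2 (rank 269 of 1478). TEAD near Saa2 had a pileup of 245 in WT (rank 12), 331 at 3 d (rank 5) and 232 at 7 d (rank 163), so this region was at the head of the TEAD list without induction. These pileups are not scaled to tag number. The receptor gene Lrp1 had a YAP pileup of 23. The cholesterol exporter Abca1 and the lipase inhibitor Angptl4 had 21 and 30. The YAP peak of the apolipoprotein loci, with 26, lay within this range.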

How the data were processed

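ChIP-seq reads were masked for low quality and aligned to mm9 with BWA 0.6.2, replicates were merged and duplicates removed by the authors. The caller was MACS 2.0.9, and per the file headers its p-value threshold was 1e-05 and its control, shared by all 6 lists, a library of 167176362 tags, which the study's methods trace to published data. The methods also state that peaks in WT liver came from published data, and whether this covers these WT lists is not given in the sources used here. The deposited pileup is a signal, the number of fragments over the summit. The deposited fold enrichment is the ratio of pileup to local background, and the deposited −log10 p-value and −log10 q-value come from the same caller. Merged YAP libraries held 54661175 tags in WT, 36221830 at 3 d and 34260362 at 7 d, and merged TEAD libraries 35168765, 55032002 and 38523843. The YAP tissue was crosslinked with DSG and formaldehyde and the TEAD tissue with formaldehyde alone, so levels of YAP and TEAD were not compared.

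Groups were taken from the sample labels. Peaks were assigned to windows and promoters by an overlap of at least 1 bp, with Python 3.11.15, pandas 2.3.3 and NumPy 2.4.6, and ranked by pileup within each list (ties took the smallest rank). The overlap, window and matching steps were tested on simulated data. The peaks to be named were, by rule, those at member promoters, the highest of each list in each locus and every YAP peak. Some promoter peaks of Apob, Apoc1 and Apoe with pileups of at most 37 were not named. Other sites of a locus were named after their values were seen, and so were the YAP peaks within 50 kb. Promoter and gene positions follow the GENCODE annotation of the same build, and no peak lay past a chromosome end. The members, the list of 31 further genes and the sequences searched were chosen with earlier results of these data known. Alternatives were a stricter threshold, other windows, promoters, overlaps, ranks and scalings. A further gene of that list and the sequence of a promoter site are not reported here.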

Additional observations from a re-analysis of the deposited data

How the results depend on the processing

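Of 93 alternative values for the counts, shares, ranks and ratios, 83 kept their direction and stayed within the limits set for a change (1.5 times for a count, the interval of the main value for a share or median). Not all of the 83 could have changed. YAP counts of 0 in WT, at 3 d and at member promoters stay 0 under any stricter or narrower setting. Others rest on the 1 YAP peak of 7 d, for which the limits are wide. TEAD peaks in WT numbered 6 at a −log10 p of at least 10 and 4 at a fold enrichment of at least 5, against 10. TEAD peaks at 3 d numbered 29 at a fold enrichment of at least 5, and 7 when the list was limited to the length of the WT list, against 52. At 7 d 6 remained under that limit, against 51. Members with a TEAD promoter peak at 3 d numbered 5 at a fold enrichment of at least 5, against 8. With windows of 50 kb the loci held 4 YAP peaks at 7 d in place of 1, the others lying near Adamts4, upstream of Apob and within Pvrl2. The share of WT peaks at a 7 d peak was 70.0% when summits had to lie within 100 bp. The median log2 ratio of 7 d to 3 d turned to −0.01 once centred on all matched peaks, by the construction of that scale. The core GGAAT, chosen after seeing the data, gave 56.9% of peaks in place of 27.5%. The cause of the remaining changes was not tested. No paired analysis was possible because replicates were merged before peak calling, and for the same reason no replicate could be left out. The lowest pileup listed was between 16 and 24 depending on the list, and over the TEAD lists it did not follow the tag number. Over the YAP lists it fell with the tag number, from 24 in WT to 20 at 3 d and 18 at 7 d.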
